A study of Bos taurus with 4 samples.

Results

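Vimentin (VIM), the keratins KRT7, KRT8, KRT18 and KRT19, desmin (DES) and the lamins LMNA, LMNB1 and LMNB2 were measured in bovine blastocysts that had developed from slow-frozen or from unfrozen control morulae. The members were the probes that the platform annotation assigns to these 9 gene symbols. Each gene had 1 probe, so the set held 9 of the 43794 probes and 9 of the 15216 gene symbols on the array. They were chosen by symbol with the slow-frozen over control ratios of these arrays already known, the low VIM ratio and the high KRT19 ratio on array 3 among them, so all member ratios are a description and carry no p-value.

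Embryos were produced in vitro from beef cattle oocytes, and compact morulae were either kept in culture (control) or frozen in 1.5 M glycerol, cooled at 0.5°C per min to -35°C, plunged into liquid nitrogen, thawed and cultured on. Per the labels, morulae were taken at day 6 and each pool held 7 expanded blastocysts collected at day 7, whereas the study's methods give later days for both stages and a pool size that could be smaller. Both channels of every array carry the entry "Yes" for cryopreservation, although their treatment entries separate SF from Control, which is the grouping used here. Each of the 4 arrays compared 1 slow-frozen pool with 1 control pool. Arrays 1 and 2 carried the slow-frozen pool in Cy5, the red dye, while arrays 3 and 4 carried it in Cy3, the green dye. By the study's methods the 4 pairs came from separate cycles of embryo production, only embryos that had become expanded blastocysts were pooled, and the RNA was amplified before labelling.

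Intermediate filaments are rope-like polymers of the cytoskeleton and of the nucleus. Keratins assemble only as pairs of a type II chain (KRT7, KRT8) with a type I chain (KRT18, KRT19), and KRT8 with KRT18 forms the first cytoplasmic filaments of the mammalian embryo, in the trophectoderm, the outer epithelium of the blastocyst. Vimentin is the filament protein of mesenchymal cells, and desmin that of muscle. Lamins line the inner nuclear membrane, where B-type lamins are made in nearly all cells and A-type lamins become abundant as cells differentiate.

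A reading counted as detected if the spot, less its local background, was brighter than 95% of the 153 negative controls of its channel. Of the 72 member readings, 67 were detected. The probes of KRT7, KRT8, KRT18, KRT19, LMNA and LMNB1 were detected in 8 of 8 readings, those of DES and LMNB2 in 7, and that of VIM in 5. All 9 members entered the fit, which took probes detected in at least 4 of 8 readings and so 30451 probes in all. Between 24638 and 31529 probes were detected per channel. Ratios of different arrays were unrelated or weakly opposed across probes (r between -0.28 and 0.04), and with 4 arrays the precision of each value below is limited.

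VIM was lower in the slow-frozen than in the control pool on arrays 1, 2 and 4, and near the detection limit in both pools on array 3. Its level, the log2 intensity of the pool's channel after normalization, was 7.00, 7.38, 6.97 and 7.45 in the slow-frozen pools of arrays 1 to 4. In the control pools of the same arrays it was 8.66, 8.07, 6.97 and 9.23. The SD was 0.25 over the slow-frozen and 0.96 over the control pools (n = 4 each), but 2 of the 4 slow-frozen readings were under the detection limit and the others just above it, so their spread is bounded by that floor and the SDs are not compared. The ranges overlapped only through the control pool of array 3. In bulk pools, fewer cells of a type and less RNA per cell cannot be told apart.

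The log2 ratios of VIM were -1.66, -0.69, -0.005 and -1.78 on arrays 1 to 4, which is 3.16-fold and 3.43-fold lower in the slow-frozen pool on arrays 1 and 4. The slow-frozen reading of array 1 was under the detection limit, as were both readings of array 3, so the folds of these arrays and of the mean are measured intensities and not transcript ratios. The mean was -1.03 ± 0.84 (SD, n = 4), a 2.04-fold lower level, with a moderated SE of 0.31 from limma. This SE, like every SE given below, leaves out differences between the dye orientations. It can therefore understate the spread of a ratio that differs between them. The mean was -1.17 with the slow-frozen pool in Cy5 and -0.89 with it in Cy3. The Cy3 mean rested on array 4, since the array 3 ratio was -0.005 with both readings under the limit. Without array 3 the ratio was -1.475. Without array 4 it was -0.59, and without array 1 it was -0.79 and no longer passed the study's threshold of a 1.5-fold change with an unadjusted p under 0.05.

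The VIM probe was dim. Its signal over background was 0.98, 1.27, 0.89 and 1.18 times the detection limit in the slow-frozen pools and 2.86, 1.87, 0.79 and 9.06 times in the control pools of arrays 1 to 4. The slow-frozen readings therefore sat beside the limit, where an array cannot tell a low transcript from none. When mean pixel values of spot and of background replaced the medians, the ratio was -0.475 and missed the study's threshold. With mean spot values but the median background, a setting added once the data had been seen, it was -1.03, and the ratio of array 3 was then 0.10. With trimmed means of spot and background, also added later, it was -0.443 and again missed the threshold. With mean spot values the ratio was thus smaller only with the mean background. Trimmed spot values were not run with the median background. The common sign on all 4 arrays did not hold with mean spot values.

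**Figure D1:**
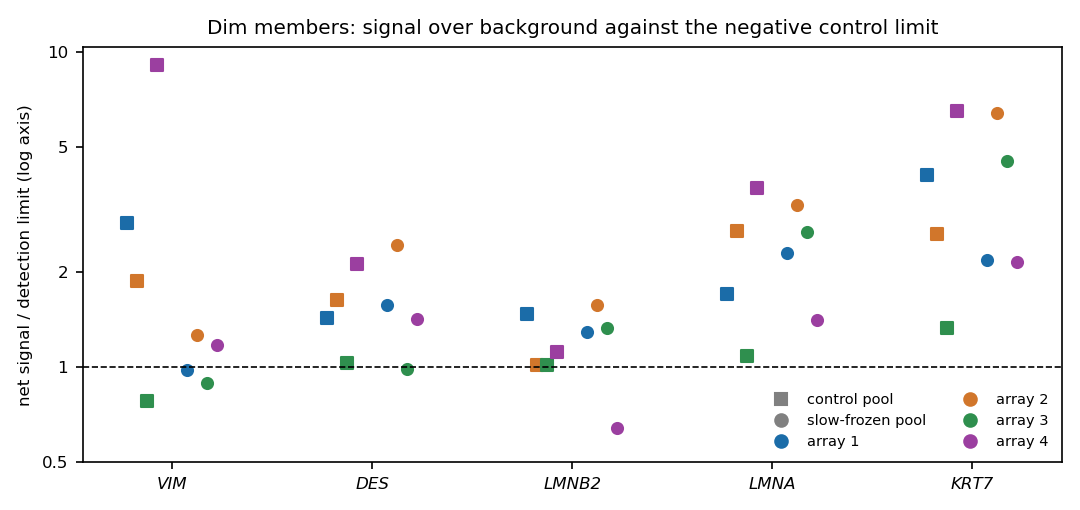
Signal over local background as a multiple of the detection limit (log axis, dashed line at 1) for the 5 members with the dimmest probes, in control pools (squares) and slow-frozen pools (circles) of arrays 1 to 4 (colours). The VIM control pools of arrays 1, 2 and 4 lie between 1.87 and 9.06, and all 4 slow-frozen VIM readings between 0.89 and 1.27.

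As background to these ratios, limma found 0 of 30451 probes (0%) with a Benjamini-Hochberg adjusted p under 0.05, and 573 (1.88%) under an unadjusted p of 0.05. At the study's threshold 39 probes were lower (0.128%) and 84 higher (0.276%) in the slow-frozen pools. Of the 9 members, 1 was lower at this threshold, VIM, and 0 were higher. VIM was also the only member with the same sign on all 4 arrays, which held for 3.88% of all tested probes on the lower and 3.99% on the higher side. For 0 of the 9 members were the 4 slow-frozen pools entirely separate from the 4 control pools, as for 0.355% of tested probes on the lower and 0.371% on the higher side. Since the choice of the members used this contrast, nothing is read from these counts.

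KRT8, the type II keratin of simple epithelia, gave the brightest spots of the set, with values close to the scanner maximum of 65535. Spot medians were 63748, 65083, 63580 and 38778 in the slow-frozen and 42177, 44652, 65535 and 59959 in the control pools of arrays 1 to 4. The control reading of array 3 was saturated, so its level is only a lower bound. With the other readings taken as measured, the array 3 ratio and the mean slow-frozen over control ratio below are upper bounds. The mean Cy5 over Cy3 ratio is then a lower bound. The log2 ratios were 0.67, 0.70, -0.003 and -0.59, positive on both arrays with the slow-frozen pool in Cy5 and at most -0.003 on those with it in Cy3. The pool in Cy5 was thus the brighter one on arrays 1, 2 and 4. As measured, the mean Cy5 over Cy3 ratio was 0.49 and the mean slow-frozen over control ratio 0.19 ± 0.62 (SD, n = 4).

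KRT18 is a type I partner of KRT8, and both genes were direct neighbours among protein-coding genes in the RefSeq order of ARS-UCD2.0. The KRT18 level was 15.25, 14.93, 15.30 and 15.20 in the slow-frozen pools and 14.64, 15.49, 14.73 and 15.09 in the control pools of arrays 1 to 4. The slow-frozen pools lay within the range of the control pools, higher on 3 of 4 arrays, with ratios of 0.61, -0.56, 0.57 and 0.11 and a mean of 0.18 ± 0.54 (SD, n = 4). Across the 8 pools, after the mean of each dye was taken off, the levels of KRT8 and KRT18 correlated at r = 0.20. This r is a description, since both pools of an array share its hybridization and normalization and 1 KRT8 reading was saturated.

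KRT19, a type I keratin without a tail domain that is made in trophectoderm, had the widest spread of the set. Its level was 13.91, 15.27, 15.84 and 13.95 in the slow-frozen pools and 14.20, 15.15, 12.69 and 14.16 in the control pools of arrays 1 to 4. On array 3 the slow-frozen pool held the highest and the control pool the lowest of the 8 levels, a ratio of 3.15 or 8.88-fold, whereas on arrays 1, 2 and 4 the ratios were -0.29, 0.13 and -0.21. The mean was 0.69 ± 1.65 (SD, n = 4), and in the fit it was -0.15 without array 3 and 1.53 without array 4, where KRT19 was higher at the study's threshold. Among all tested probes 0.102% had an SD over the 4 arrays at least as large. The slow-frozen KRT19 spot of array 3 reached 62449 and was not saturated.

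KRT7, the other type II keratin, is typical of simple epithelia such as trophoblast. Its level was 8.11, 9.26, 9.07 and 8.38 in the slow-frozen and 9.09, 8.53, 8.05 and 8.73 in the control pools of arrays 1 to 4. It was lower in the slow-frozen pool on arrays 1 and 4 and higher on arrays 2 and 3, with ratios of -0.98, 0.73, 1.02 and -0.35 and a mean of 0.10 ± 0.94 (SD, n = 4). Over the 8 pools KRT7 followed KRT19 at r = 0.71, more closely than KRT18 did (r = 0.45), though no test of that difference was made. Both values include the array 3 pair, with the highest and lowest KRT19 levels. No keratin thus had the same direction on all 4 arrays, and the mean ratios of all 4 keratins were smaller than their SD. With median centring of each array in place of loess, the ratios of KRT7, KRT8 and KRT18 became -0.05, -0.15 and -0.15, while that of KRT19 stayed positive at 0.39.

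**Figure D2:**
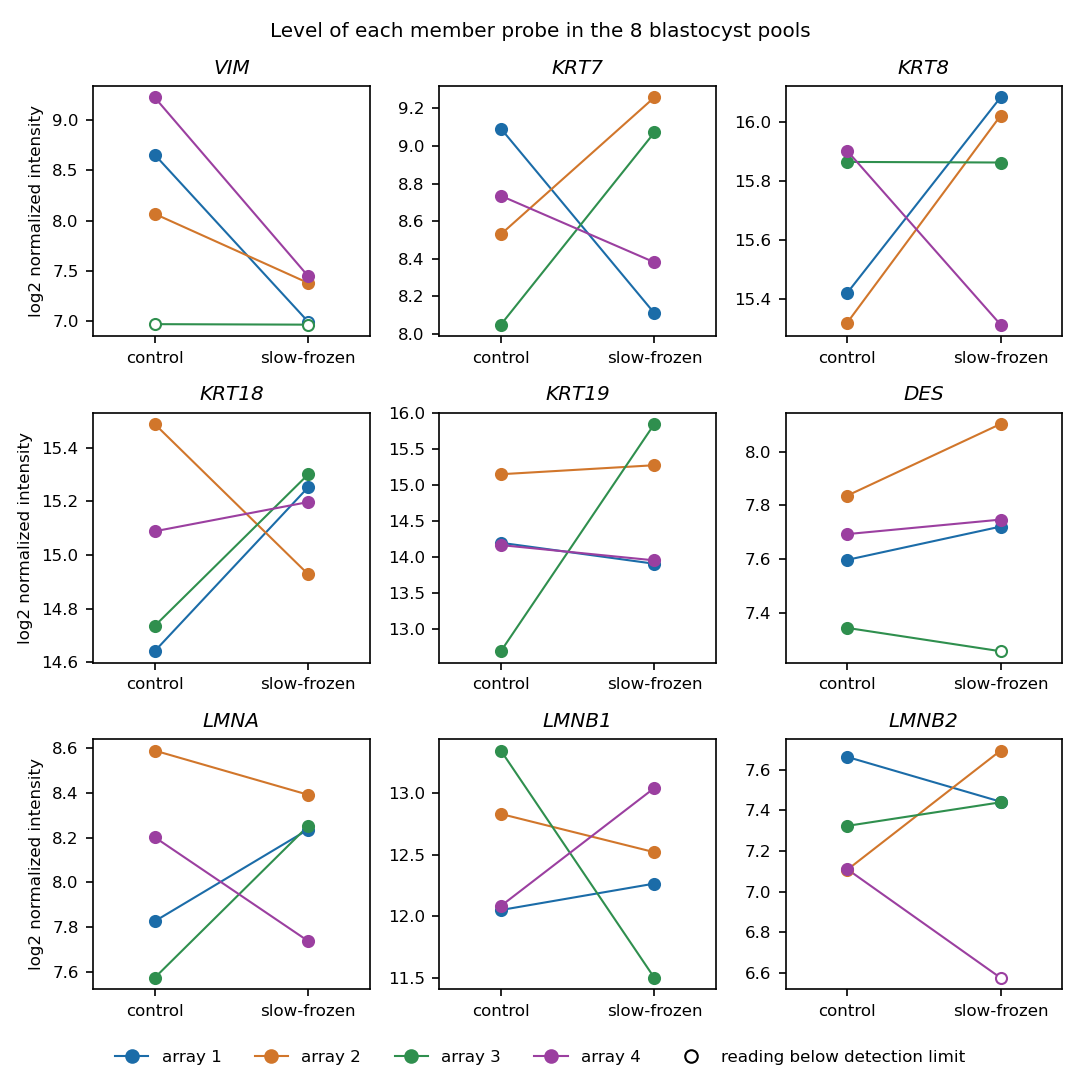
Level of each member (log2 normalized intensity, a separate axis per gene) in the control and slow-frozen pools, with both pools of an array joined by a line and open symbols for readings under the detection limit. The VIM lines of arrays 1, 2 and 4 run downward to slow-frozen levels between 7.00 and 7.45, and the KRT19 line of array 3 runs from 12.69 up to 15.84.

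DES, the filament gene of muscle, was close to the limit, at 0.99 to 2.44 times the limit in the slow-frozen and 1.03 to 2.12 times in the control pools. Its levels ran from 7.26 to 8.10 in the slow-frozen and from 7.34 to 7.84 in the control pools. The ratios were 0.12, 0.27, -0.09 and 0.05, with a mean of 0.09 ± 0.15 (SD, n = 4). DES had the narrowest spread of the set, and 89.2% of tested probes had an SD at least as large.

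LMNB1, a B-type lamin, had the largest SD of array ratios after KRT19. Its level was 12.26, 12.52, 11.50 and 13.04 in the slow-frozen pools and 12.05, 12.83, 13.35 and 12.08 in the control pools of arrays 1 to 4. On array 3 the slow-frozen pool was 3.60-fold lower (log2 ratio -1.85), and on array 4 it was 1.94-fold higher (0.96). The ratios of arrays 1 and 2 were 0.22 and -0.31, and the mean was -0.25 ± 1.19 (SD, n = 4). Without array 3 the ratio was 0.46 and without array 4 it was -0.95, so its direction depended on which of these pools was kept. Among tested probes 0.539% had an SD at least as large.

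The array 3 pair was thus the one in which KRT19 was far higher and LMNB1 far lower in the slow-frozen pool. Over the 8 pools LMNB1 ran against KRT19 (r = -0.61) and against KRT8 (r = -0.77). Both are given as a description.

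LMNA, which encodes the A-type lamins A and C, had levels of 8.24, 8.39, 8.25 and 7.74 in the slow-frozen and 7.83, 8.59, 7.58 and 8.20 in the control pools of arrays 1 to 4. All 4 slow-frozen pools lay within the range of the control pools. Its ratios were 0.41, -0.20, 0.68 and -0.46, with a mean of 0.11 ± 0.53 (SD, n = 4). LMNA followed KRT19 over the 8 pools at r = 0.85 (KRT18 at 0.69). KRT19 had its highest and lowest levels on array 3, where LMNA had its largest ratio and a control reading at 1.09 times the limit. No r was taken without that pair. LMNB2, the second B-type lamin, was at 0.64 to 1.57 times the limit in the slow-frozen and 1.02 to 1.47 times in the control pools. Its ratios were -0.22, 0.59, 0.12 and -0.53, with a mean of -0.01 ± 0.48 (SD, n = 4), so the set held no lamin with the same direction on all 4 arrays.

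**Figure D3:**
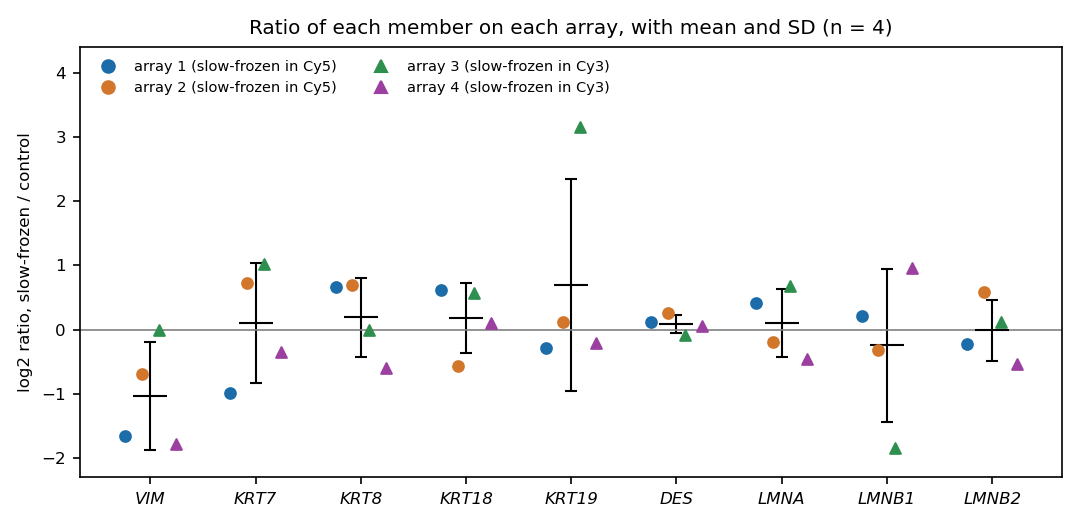
Log2 ratio of slow-frozen over control for each member on arrays 1 to 4 (circles: slow-frozen pool in Cy5; triangles: in Cy3), with the mean and SD over the 4 arrays in black. Only the VIM points all lie below 0, from -1.78 to -0.005, and the KRT19 point of array 3 stands at 3.15.

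Over the 8 pools, the genes whose levels were most like those of VIM among 11827 tested genes were PARP6 (r = 0.99), BCL7B (0.98), VIPR1 (0.96), SERPINH1 (0.95), which encodes a collagen chaperone, and CNGB3 (0.94). Their mean ratios lay between -0.23 and -0.11, smaller in size than that of VIM, and only BCL7B was negative on all 4 arrays. VIPR1 was detected in 4 and SERPINH1 and CNGB3 in 5 of 8 readings. VIM itself was detected in 5, and its slow-frozen readings lay between 0.89 and 1.27 times the detection limit. VIM had an r of -0.44 with KRT8 and of -0.025 with KRT19. For KRT18 the closest genes were RUFY2 (0.98), NANOS3 (0.95), RAB24 (0.94), TMEM45A (0.93) and CDX2 (0.93), the homeobox factor of the trophectoderm. The CDX2 ratios were 0.75, -0.49, 0.30 and -0.39 on arrays 1 to 4, with the sign of KRT18 on arrays 1, 2 and 3. For KRT19 they were VPS18 (0.98), NHERF1, an apical scaffold of epithelia (0.97), MMP16 (0.97), IVD (0.97) and TUBB4B, a tubulin (0.97), and for KRT8 they were RPS16 (0.97), SRRM2 (0.96), GSTP1 (0.95), LOC100297075 (0.94) and CBLC (0.93). With 8 pools and many genes, high values of r arise without any relation, and none was tested.

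Among 25 tested genes of a list of other intermediate filament genes, 18 had a ratio above and 7 below 0. The median log2 ratio was 0.05, against 49% higher and a median of -0.004 over all 11827 tested genes. Array medians of the list were -0.078, -0.103, 0.051 and 0.165, positive only with the slow-frozen pool in Cy3. With median centring in place of loess the list had a median of -0.02 and all tested genes -0.13. At the study's threshold 0 of the 25 lay on either side, as against 0.169% of genes higher and 0.211% lower, and limma left 0 of 11827 genes (0%) under an adjusted p of 0.05. The basal epithelial keratin KRT5 had 0.27 ± 0.19 (SE, n = 4 arrays), KRT6B 0.24 ± 0.14, the lens filament gene BFSP1 0.21 ± 0.22 and KRT26 -0.13 ± 0.14. KRT6B was detected in 6 and KRT26 in 4 of 8 readings. The KRT6B ratios were 0.72, 0.52, -0.09 and -0.21 on arrays 1 to 4, positive only with the slow-frozen pool in Cy5. Of 15 genes that link filaments to junctions and other structures, 8 were higher and 7 lower, with a median of 0.02 and 0 at the threshold. Among them DST, which encodes the linker dystonin, had -0.38 ± 0.14 and was negative on all 4 arrays, and JUP, which encodes the junction protein plakoglobin, had 0.37 ± 0.17 and was positive on all 4. KRTCAP3 had 0.25 ± 0.21, with other probes at 0.09 and -0.09, and PKP3, a desmosomal plakophilin, had -0.22 ± 0.18.

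Of 19 nuclear envelope partners of the lamins, 10 were higher and 9 lower, with a median of 0.04. Of all tested genes 0.211% were lower at the study's threshold. The 1 gene of this list at it was SYNE2, which encodes nesprin-2, a giant linker between the nucleus and the cytoskeleton. Its ratios were 0.43, -0.56, -0.61 and -3.05 on arrays 1 to 4, so the mean of -0.95 ± 0.39 (SE, n = 4) rested on array 4, and its other probes gave -0.96 and 0.04. LBR, the lamin B receptor, had 0.53 ± 0.14, with ratios of -0.07, 0.14, 1.09 and 0.95, high only with the slow-frozen pool in Cy3. SYNE1, the gene of nesprin-1, had -0.40 ± 0.27, and RCE1, a protease that processes the tails of farnesylated proteins such as lamins, had 0.28 ± 0.17.

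VIM is a marker of mesenchymal transition, and 9 genes of that program were tested, of which 5 were higher and 4 lower, with a median of 0.01 and 0 at the threshold. TWIST2 had -0.28 ± 0.34, SNAI1 0.19 ± 0.15 with a second probe at -0.10, the fibronectin gene FN1 -0.13 ± 0.27, and the N-cadherin gene CDH2 -0.11 ± 0.17 with another probe at -0.05 (SE, n = 4 each). SNAI2 was detected in 0 of 8 readings and was not tested. Of 12 trophectoderm regulators 7 were higher, with a median of 0.04 and GATA3 at 0.35 ± 0.19, ELF3 at 0.29 ± 0.38, TEAD4 at 0.17 ± 0.15 (another probe at 0.01) and GRHL2 at -0.16 ± 0.15. On arrays 1 to 4 the list had medians of 0.33, 0.14, -0.14 and -0.06, positive only with the slow-frozen pool in Cy5.

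Markers of the cell types that a blastocyst pool can hold were read beside the VIM ratios of -1.66, -0.69, -0.005 and -1.78. Over all tested genes 49% were higher, and at the study's threshold 0.169% were higher and 0.211% lower. Of 15 inner cell mass and epiblast markers 12 were higher, with a median of 0.09, and their medians were -0.05, 0.80, 0.17 and -0.13 on arrays 1 to 4. The fitted median was -0.03 without array 2 and 0.42 without array 1, so its sign depended on the arrays kept. NANOG, a pluripotency factor, had -2.18, 3.24, 2.59 and -0.39 on these arrays, so the pools of a pair differed strongly in it and in both directions. LIN28B had 0.63 ± 0.22 and was the 1 gene of this list at the study's threshold, IL6R had 0.52 ± 0.22 and POU5F1 0.38 ± 0.16 (SE, n = 4 each). LIN28B and IL6R were higher on all 4 arrays and POU5F1 on 3. The part of cell composition in the VIM result was not tested. The summed intensity of the whole list ran from 35316 to 39327 in the slow-frozen and from 24946 to 42788 in the control pools.

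Of 17 trophectoderm markers, KRT8 and KRT18 among them, 12 were higher, against 49% of all tested genes, with a median of 0.09. PLET1, lower on all 4 arrays at -0.86 ± 0.29, was the 1 gene at the threshold, where 0.211% of all tested genes were lower. IFNT had -0.84 ± 0.37, PTGS2 0.47 ± 0.20 with other probes at 0.39 and 0.40, and the summed intensity of the list ran from 155150 to 197740 in the slow-frozen and from 145690 to 213190 in the control pools. Of 11 hypoblast markers 6 were higher, with a median of 0.02, and array medians of 0.04, -0.35, 0.06 and 0.13. LAMA1 had -0.28 ± 0.16, COL4A1 0.26 ± 0.18, GATA4 -0.17 ± 0.21, and PDGFRA 0.22 ± 0.52 with ratios from -1.51 to 2.06 (another probe gave -0.08). The LAMA1 ratios were 0.62, -0.025, -0.86 and -0.85 on arrays 1 to 4, low only with the slow-frozen pool in Cy3.

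Cumulus and granulosa cells surround the oocyte and make vimentin. Of their 18 tested markers 11 had a ratio below 0, where 49% of all tested genes lay above 0. The list had a median of -0.06 and 0 genes at the threshold. The summed normalized intensity of all 27 probes of the list ran from 8081 to 10097 in the slow-frozen and from 8857 to 13717 in the control pools. LUM had -0.81, -0.03, -0.14 and -1.08 on arrays 1 to 4, COL3A1 -0.34, 0.33, 0.03 and -1.25, GJA1 -0.59, -0.60, 0.14 and -0.60 (another probe averaged 0.04), and COL1A2 0.59, -0.34, -0.49 and -0.88. LUM and COL3A1 were each detected in only 4 of 8 readings. These named genes had the largest absolute mean ratios of the list. On the other side 7 of the 18 markers had a ratio above 0, and INHBB, also detected in 4 readings, was higher on all 4 arrays. The medians of the whole list were -0.12, -0.11, 0.11 and -0.04 on arrays 1 to 4. On array 4 its tested markers ran from -1.25 (COL3A1) to 0.41 (STAR, whose other probes averaged -0.17 and -0.07). The granulosa markers AMH and FOXL2 were detected in 0 of 8 readings, and the part of such cells in the VIM result was not tested. Of 9 leukocyte markers 4 could be tested, all between -0.12 and -0.03, with CD3E at -0.12 ± 0.14, TYROBP at -0.11 ± 0.15, CD68 at -0.09 ± 0.15 and PTPRC at -0.03 ± 0.18, and CD79A and ITGB2 were detected in 0 of 8 readings.

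**Figure D4:**
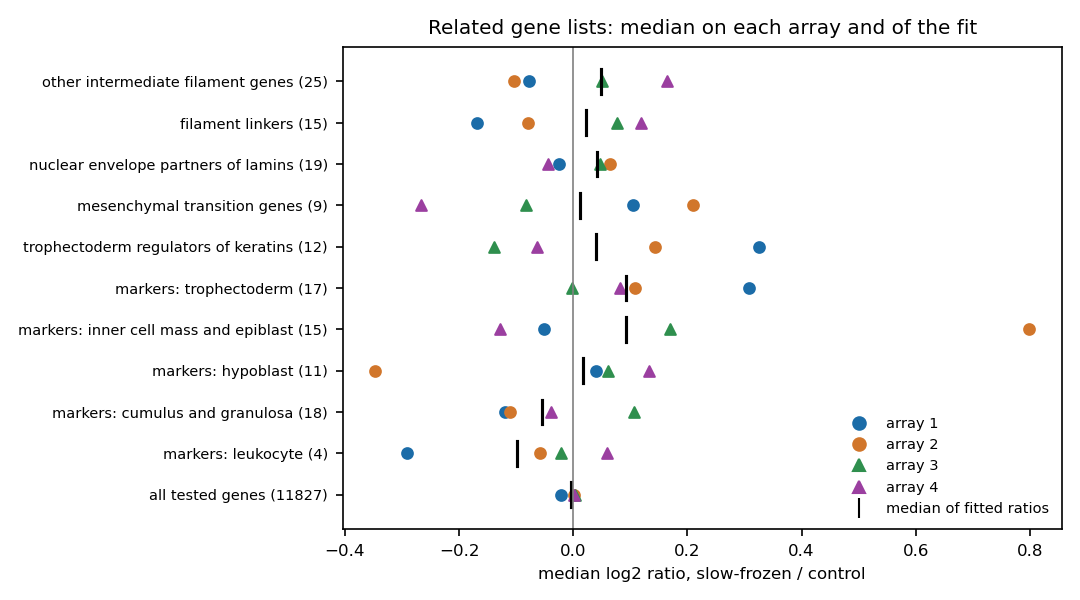
Median log2 ratio of slow-frozen over control in each related gene list (number of tested genes in brackets) on arrays 1 to 4 (circles: slow-frozen pool in Cy5; triangles: in Cy3) and in the fit (black bars). The fitted medians lie between -0.10 and 0.09, while the inner cell mass list reaches 0.80 on array 2.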

How the data were processed

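The deposited scanner files give spot and local background intensity per channel as read with Array-Pro, neither corrected nor normalized by the authors. A deposited table of log2 values tracked the Cy5 over Cy3 ratios (r from 0.938 to 0.993, column medians from -0.0023 to 0.0017), so it was read as centred ratios not turned to treatment. For their own analysis the authors subtracted background from median intensities, took log2 values and applied lowess and then quantile normalization, and whether all of these steps lie behind the deposited table is not stated.

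Here, median intensities were corrected with normexp (offset 50) and normalized by loess within arrays, giving control spots no weight (limma 3.58.1, R 4.3.3). Ratios, turned to slow-frozen over control, were fitted over all tested probes with treatment and dye terms, eBayes and Benjamini-Hochberg adjustment. Levels per pool were taken after Aquantile normalization and can carry dye bias. In the annotation, 21790 probes carried 1 gene symbol, of which 1524 were updated through RefSeq synonyms. Left out were 14 closing lines of column statistics per file and 31 probes marked by the scan software. The brightest probe stood for a gene. Named genes were all members, up to 4 genes with the largest absolute ratio per list, and 5 genes most correlated with VIM, KRT8, KRT18 and KRT19. Members and lists were chosen with earlier results of these data known. The fit was tested on simulated independent normal noise with known folds. The simulation held no detection floor, saturation or difference between dye orientations, so it does not cover these limits. Figures were drawn with matplotlib 3.10.9.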

Additional observations from a re-analysis of the deposited data

Results flagged for a closer look

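The KRT19 ratio of array 3, at 3.15, stood apart from the other 3 array ratios, with a gap to its nearest neighbour of 0.879 of the whole range, above Dixon's 95% critical value. It was the only one of 27 groups of 4 values checked over the 9 members, namely the array ratios and the levels of each treatment, and chance marks about 1 in 20 such groups. Both pools contributed, with the highest slow-frozen level at 15.84 and the lowest control level at 12.69. This value was known when the genes were chosen, so its place beyond the critical value is a description and not a test. The cause was not tested.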

How the results depend on the processing

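The VIM ratio was negative under all 10 processing alternatives that could be fitted with it, between -1.04 and -0.443. Not all of these were separate checks. Dropping the dye term or the detection filter cannot change this ratio, and both left it at -1.032. The deposited table (-1.018) nearly repeated plain background subtraction (-1.017). With each array left out in turn, the VIM ratio lay between -1.475 and -0.59. The probe was not in the fit when detection in all 8 readings was required, so 0 members were then at the study's threshold. With mean spot and background signals 0 members, 14 higher and 3 lower probes were at that threshold, in place of 1 member, 84 higher and 39 lower probes. With trimmed means, added after the data had been seen, the counts were 0, 13 and 1. With median centring 25 probes were higher and 494 lower, and the median of all tested genes was -0.13, so the direction of the weak keratin ratios is relative to the scaling. With 1 array left out, between 0 and 3 members passed, KRT19 and LMNB1 joining VIM without array 4 and none passing without array 1, and between 183 and 547 probes were higher and between 110 and 394 lower, while between 0 and 1 probe passed the adjustment. The dye term stayed in these fits, so the remaining array of an orientation weighed more. At the 99th percentile of the negative controls 63 of 72 member readings were detected in place of 67. Leaving out 1 array turned the sign of KRT7 (-0.32 to 0.53), KRT18 (-0.11 to 0.47), KRT19 (-0.15 to 1.53), LMNA (-0.18 to 0.39), LMNB1 (-0.95 to 0.46) and LMNB2 (-0.21 to 0.19), and kept that of KRT8 (0.05 to 0.34) and DES (0.05 to 0.13). It also turned the median of the nuclear envelope (-0.02 to 0.08), mesenchymal (-0.06 to 0.05), trophectoderm regulator (-0.09 to 0.08), inner cell mass (-0.03 to 0.42), hypoblast (-0.09 to 0.04) and cumulus and granulosa (-0.17 to 0.03) lists. The array ratio already paired both pools, so no separate paired analysis was possible because every fit holds the pairing.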
